A study of Caenorhabditis elegans with 8 samples.

Results

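Expression of 7 pharynx genes was examined in whole Caenorhabditis elegans given the antiretroviral drug zidovudine. The genes were taken by symbol from the 17826 genes of the deposited table and comprised the myosin heavy chain genes myo-1, myo-2 and myo-5, the troponin genes tnc-2 and tni-4, and the transcription factor genes pha-4 and ceh-22. They had been chosen for their part in the pharynx and for a shared rise of their log2 CPM with zidovudine over DMSO in these same libraries, so the differences between the groups given for them are a description and carry no test. All 7 were found, and 6 of them passed the filter on low values. ceh-22 lay below it.

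Both groups were the wild-type strain N2, synchronised and grown to larval stage 4, after which about 1000 worms per sample spent 24 h on plates with either DMSO, the vehicle, or 50 µM zidovudine, a thymidine analogue. Worms were frozen whole on day 1 of adulthood. By the labels' wording, which is the same for all 8 samples, the plates also held 5-fluorouracil, a pyrimidine analogue, so both groups were taken to carry it. Each group had 4 libraries of poly(A) RNA. Nothing in the labels says that these came from separate cultures, so errors measure the spread between these samples, which may be technical.

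The pharynx is the neuromuscular pump with which the worm takes in and grinds bacteria, and its muscles are a lineage of their own. They use myosin heavy chains and troponins encoded by other genes than those of the body wall muscle that moves the animal. PHA-4, a FoxA factor, specifies the organ in the embryo and acts on genes throughout it, while CEH-22, an NK-2 homeodomain factor, activates genes of pharyngeal muscle, myo-2 among them. In RNA of whole worms, fewer cells of a type and less RNA per cell cannot be told apart.

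The libraries held 30449021 to 56930820 reads in genes. Of the 12382 genes that passed the filter, which asked for 0 or more log2 CPM on average, 7 (0.0565%) were higher and 14 (0.113%) lower with zidovudine by limma at an adjusted p under 0.05. Leaving out 1 library gave 1 to 17 genes higher, the most without DMSO 3, and 3 to 28 lower, the most without zidovudine 2. At an unadjusted p under 0.05 these shares were 6.28% and 5.48%. The groups shared no values, with every zidovudine library higher, for 3.84% of the tested genes, and with every zidovudine library lower for 2.82%. DMSO 4 carries another flow cell identifier than the rest and listed 8.24% of genes at 0 reads, and for that reason values without it are given where they matter. DMSO 4 and zidovudine 2 had the lowest limma quality weights, 0.346 and 0.53. The difference between the groups also ran with exon length over all genes, from a median of -0.34 (log2) for 678 tested genes under 500 nt to 0.11 for 375 genes of at least 5000 nt.

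Of the 7 genes, 6 had a higher mean with zidovudine and 1, ceh-22, a lower one, with differences of -0.07 to 0.48 on the log2 scale and a median of 0.34. Over all tested genes the median was 0.01, and 52.3% were above 0. None of the 6 tested pharynx genes passed the adjusted threshold, 4 had an unadjusted limma p under 0.05, and voom on the recovered reads put 0 past the adjusted threshold. Without DMSO 4, 1 of them passed in limma, and without zidovudine 2, 2 did. Since the genes were picked on this contrast, these counts beside their backgrounds describe the choice and support nothing further. The shared rise named in their choice was a difference of 0.30 to 0.48 for the 3 myosins, pha-4 and tnc-2. It was far smaller for tni-4, whose difference of 0.04 was under its SE of 0.09, and ceh-22, with a lower mean, rested on 3 to 16 reads per library.

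**Figure D1:**
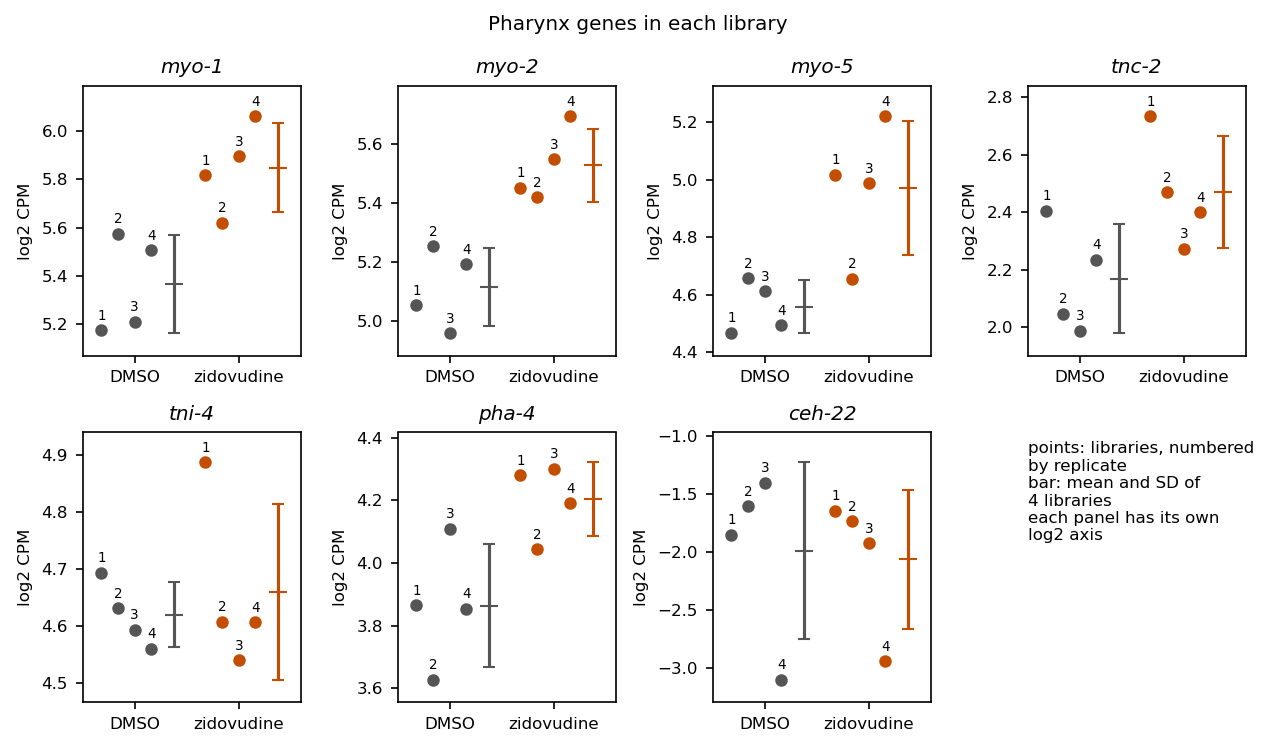
Level of each pharynx gene in each library, in log2 CPM on a separate axis per gene; points are libraries numbered by replicate, grey for DMSO and orange for zidovudine, and the bars are the mean and SD of 4 libraries. The groups stand apart for myo-1 and myo-2, touch for myo-5 at zidovudine 2, and mix for tni-4 and ceh-22.

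myo-1 (WBGene00002348; WBcel235 chromosome I, 7258946 to 7267057, minus strand, 6457 nt of exons) encodes a myosin heavy chain of pharyngeal muscle, the motor of its thick filaments. Its level was 5.17, 5.57, 5.21 and 5.51 log2 CPM in DMSO 1 to 4, and 5.82, 5.62, 5.90 and 6.06 in zidovudine 1 to 4. All 4 zidovudine libraries lay above all 4 DMSO libraries, though the lowest of them, zidovudine 2, was close to the highest with DMSO. The means were 5.37 ± 0.20 and 5.85 ± 0.18 (SD, n = 4), a difference of 0.48 (SE 0.11), or 1.40-fold, on 1122 to 3314 reads per library. Without DMSO 4 the difference was 0.53.

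myo-2 (WBGene00003514; chromosome X, 12468061 to 12475348, plus strand, 6334 nt) encodes the other classical pharyngeal heavy chain, and its promoter is the usual driver of pharyngeal markers in the worm. It stood at 5.05, 5.25, 4.96 and 5.19 log2 CPM in DMSO 1 to 4, and at 5.45, 5.42, 5.55 and 5.70 with zidovudine. Again no value was shared between the groups. The difference was 0.41 (SE 0.09), or 1.33-fold, between means of 5.11 ± 0.13 and 5.53 ± 0.12 (SD, n = 4).

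myo-5 (WBGene00019064; chromosome V, 8108970 to 8118131, plus strand, 6296 nt) encodes a further predicted heavy chain of the muscle class. With DMSO it measured 4.47, 4.66, 4.61 and 4.49 log2 CPM, and with zidovudine 5.02, 4.66, 4.99 and 5.22. Zidovudine 2 lay just under DMSO 2, and the other zidovudine libraries were above all DMSO libraries. The means of 4.56 ± 0.09 and 4.97 ± 0.23 (SD, n = 4) differed by 0.41 (SE 0.11).

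The 3 myosin genes varied together also within the groups. Their deviations from the group means gave Pearson r of 0.58 to 0.93 over the 8 libraries for the 3 pairs, the highest being myo-1 with myo-2. The other 18 pairs among the 7 genes ranged from -0.65 to 0.78 with a median of -0.22, and their highest value was that of the troponins tnc-2 and tni-4. The points of each r share their library, its depth and its normalisation. All 3 myosins were low in zidovudine 2 and high in zidovudine 4 relative to their group, and so was the median of the tested genes of at least 5000 nt, at -0.11 and 0.06. In DMSO 3 and DMSO 4 the mean deviation of the myosins was -0.09 and 0.05, and the median of the long genes 0.03 and -0.07. There myo-1 and myo-2 went against the long genes, while myo-5, at 0.05 and -0.06, went with them. The part of exon length in this was not tested.

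**Figure D2:**
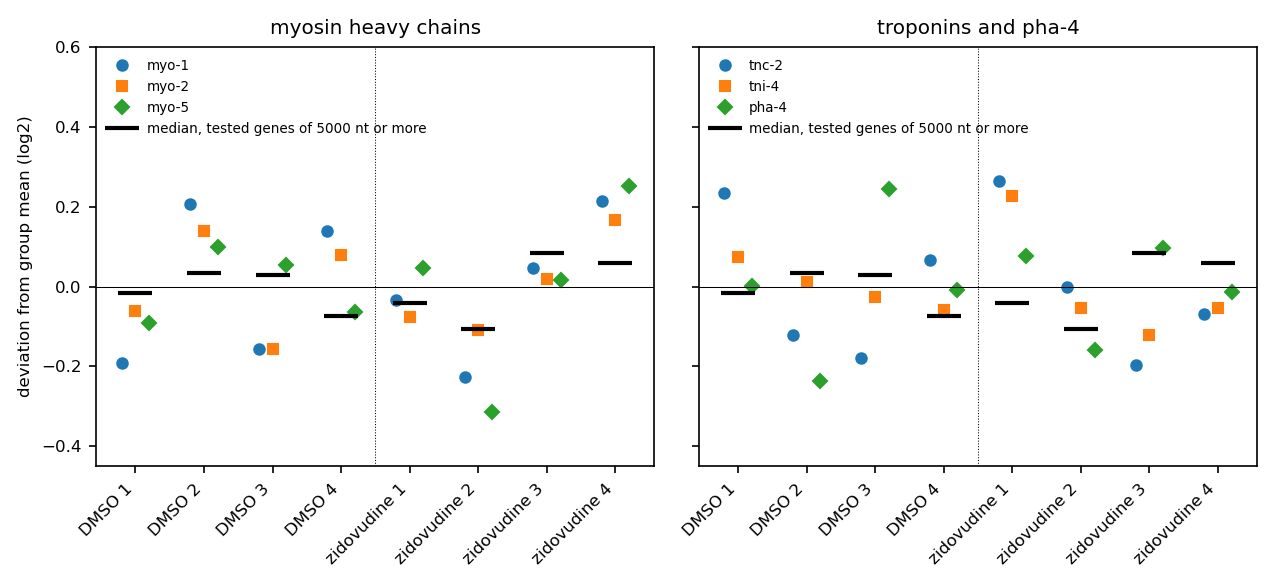
Deviation of each gene from its group mean (log2) in each of the 8 libraries, with myosins on the left and tnc-2, tni-4 and pha-4 on the right; the black bar in each library is the median deviation of the tested genes of 5000 nt or more. myo-1 and myo-2 lie close together in most libraries, and in zidovudine 1 tnc-2 and tni-4 are both high.

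Troponin is the calcium switch of the thin filament, in which troponin C binds calcium and troponin I holds the filament off. tnc-2 (WBGene00006583; chromosome II, 10466852 to 10468358, plus strand, 819 nt) encodes the troponin C of the pharynx. It read 2.40, 2.05, 1.99 and 2.24 log2 CPM in DMSO 1 to 4, and 2.73, 2.47, 2.27 and 2.40 with zidovudine. The groups overlapped, with DMSO 1 above zidovudine 3 and just above zidovudine 4. The difference was 0.30 (SE 0.15) on at most 389 reads per library, between 2.17 ± 0.19 and 2.47 ± 0.19 (SD, n = 4). Its exons share 157 nt with clec-143 on the opposite strand, and whether reads were counted by strand is not given in the sources used here.

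tni-4 (WBGene00006586; chromosome IV, 5204591 to 5207124, plus strand, 821 nt) encodes the troponin I of the pharynx. Its levels with DMSO, 4.69, 4.63, 4.59 and 4.56 log2 CPM, hardly differed from those with zidovudine, 4.89, 4.61, 4.54 and 4.61. Only zidovudine 1 stood above the DMSO libraries. The means were 4.62 ± 0.06 and 4.66 ± 0.15 (SD, n = 4), a difference of 0.04 (SE 0.09) that turned to -0.03 without zidovudine 1. With 731 to 1741 reads per library, tni-4 was measured on far more reads than tnc-2. It shares 16 nt of exon with Y59E9AL.36 on the opposite strand.

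pha-4 (WBGene00004013; chromosome V, 20753052 to 20760317, plus strand, 2158 nt over 3 transcripts) encodes the FoxA factor of the pharynx, which also works outside it in the gut and gonad. It measured 3.86, 3.63, 4.11 and 3.85 log2 CPM with DMSO and 4.28, 4.04, 4.30 and 4.19 with zidovudine. Zidovudine 2 lay below DMSO 3, and otherwise the zidovudine libraries were higher. The means of 3.86 ± 0.20 and 4.20 ± 0.12 (SD, n = 4) differed by 0.34 (SE 0.11).

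ceh-22 (WBGene00000445; chromosome V, 10671918 to 10675769, plus strand, 2369 nt over 5 transcripts) was the lowest of the 7 by far. Its reads numbered 9, 10, 10 and 3 in DMSO 1 to 4 and 16, 8, 10 and 4 in zidovudine 1 to 4. Libraries 4 of both groups were the lowest, and the groups overlapped throughout. On the log2 CPM scale, which the added prior compresses at such counts, the means were -1.99 ± 0.76 and -2.06 ± 0.60 (SD, n = 4), a difference of -0.07 (SE 0.53). A change of the size seen in the myosins was not detectable at this depth. An ncRNA on the opposite strand, F29F11.19, overlaps 555 nt of its exons.

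Levels per length, log2 CPM minus the log2 of exon length in kb, were not used in choosing the genes. With DMSO they ran from tni-4 at 4.90, through pha-4 at 2.75, myo-1 at 2.68, tnc-2 at 2.46 and myo-2 at 2.45, to myo-5 at 1.90 and ceh-22 at -3.24. Among pha-4, myo-1, tnc-2 and myo-2 the ranges of neighbours overlapped in both groups. Compared within each library, myo-1 was above myo-2 and pha-4 above tnc-2 in 8 of 8 libraries, while pha-4 was above myo-1 in 4 of 8 and tnc-2 above myo-2 in 2 of 8. The steps from tni-4 to pha-4, from myo-2 to myo-5 and from myo-5 to ceh-22 showed no overlap in either group. Per length, myo-1 was 1.17 times myo-2 with DMSO and 1.22 times with zidovudine, and myo-2 was 1.46 times myo-5 in both groups.

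Proteins of the thin filament work in fixed proportion, so the levels of the 3 pharyngeal troponins were set side by side. Troponin T of the pharynx, tnt-4, stood at 2.49 ± 0.47 with DMSO and 2.998 ± 0.19 with zidovudine (log2 CPM per kb, SD, n = 4). tni-4 was 5.45 times tnc-2 and 5.32 times tnt-4 per length with DMSO, and 4.56 and 3.86 times with zidovudine. The troponin I RNA was therefore the most abundant of the 3 in both groups.

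The body wall genes of the same families differed in how far they stood from these. unc-54, the main body wall myosin heavy chain, was 29.0 times myo-1 per length with DMSO and 23.1 times with zidovudine, while myo-3, the minor one, was 2.12 and 1.63 times myo-1. The body wall troponin C gene pat-10 was 149 times tnc-2 with DMSO and 115 times with zidovudine. unc-27, a body wall troponin I gene, was 18.3 and 17.5 times tni-4. Other body wall troponin genes lay on both sides of tni-4, which stood at 4.90 log2 CPM per kb with DMSO. tnt-2 at 8.57 and mup-2 at 7.37 were far above it, tni-3 at 5.06 and tnt-3 at 4.38 near it, and tni-1 at 3.79 below it.

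**Figure D3:**
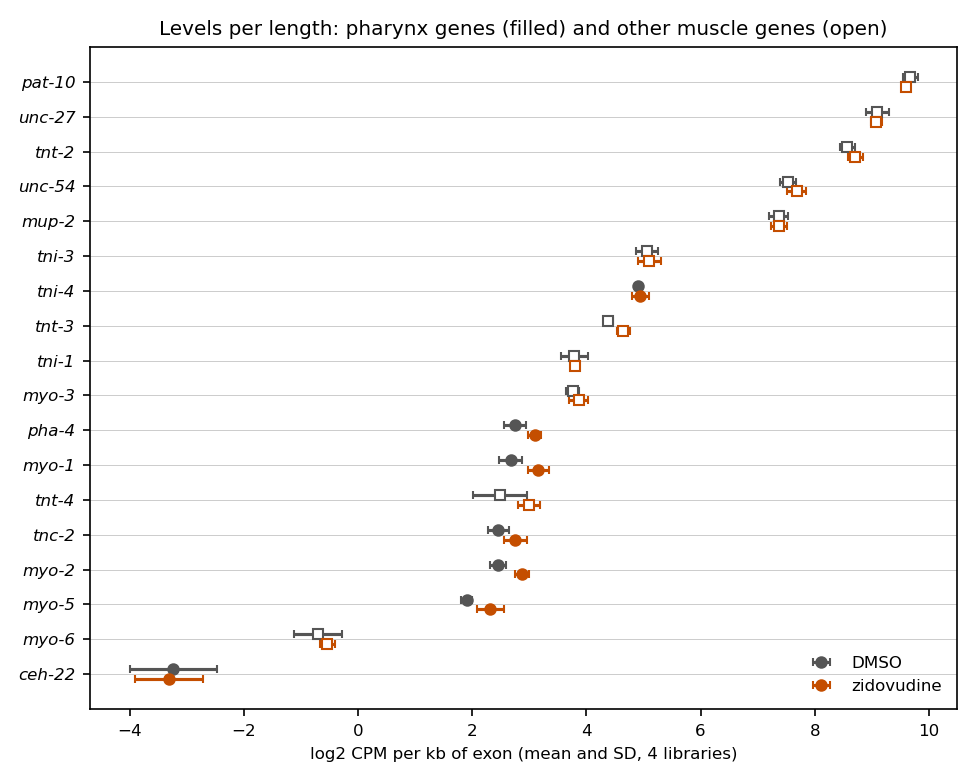
Level per kb of exon (log2 CPM per kb, mean and SD of 4 libraries per group) of the 7 pharynx genes, filled circles, and of other muscle genes, open squares, with DMSO in grey and zidovudine in orange. tni-4, at 4.90 with DMSO, sits among the body wall troponin genes tni-3 and tnt-3, and ceh-22 is at the bottom at -3.24.

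Expressed as a share of 5 muscle myosin heavy chain RNAs per length (unc-54, myo-3, myo-1, myo-2 and myo-5), the 3 pharyngeal genes made up 7.35%, 8.47%, 6.18% and 7.27% in DMSO 1 to 4. With zidovudine they made up 8.73%, 8.54%, 9.16% and 8.67%. The zidovudine values lay close together and above those with DMSO, of which DMSO 2 came within reach of the lowest. The means were 7.32 ± 0.94% and 8.77 ± 0.27% (SD, n = 4). No test is given, because the share is built from genes chosen on this contrast.

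Exon length was compared because the myosins are among the longest of the tested genes. In the length class of the 3 myosins, at least 5000 nt, 14.1% of tested genes had every zidovudine library above every DMSO library, against 3.84% of all tested genes. After the trend on length was taken out of each library, the differences were 0.38 for myo-1, 0.31 for myo-2 and 0.31 for myo-5. For the short troponins they moved the other way, to 0.39 for tnc-2 and 0.13 for tni-4, and for pha-4 the value was 0.29. With the trend removed, the 5 tested genes other than tni-4 lay between 0.29 and 0.39, and ceh-22, below the filter, was at -0.12.

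**Figure D4:**
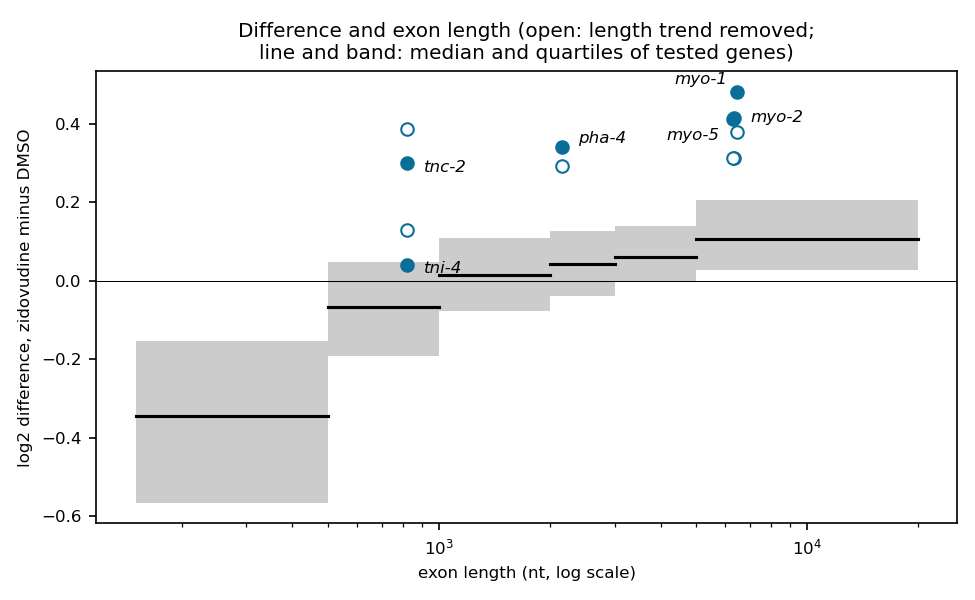
Difference between groups (log2, zidovudine minus DMSO) against exon length in nt on a log axis for the 6 tested pharynx genes, filled as deposited and open after removal of the length trend; lines and bands are the median and quartiles of all tested genes in each length class. The class medians climb from -0.34 to 0.11, and the myosins lie above the band of their class.

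Genes of the pharynx outside the 7 were taken from 5 lists, written with earlier results of these data known. A listed gene need not be used in the pharynx alone. With DMSO, eat-6 and inx-3 stood at 7.79 and 6.23 log2 CPM per kb, against 2.68 for myo-1. Of 55 listed genes, 48 were in the table and 30 were tested, of which 25 were above 0 and 5 below, with a median difference of 0.20. None passed the adjusted threshold in limma or voom, 8 were higher and 0 lower at an unadjusted p under 0.05, where 6.28% of all tested genes were higher, and 5 had every zidovudine library above every DMSO library, against 3.84% of all. Above 0 were 52.3% of all tested genes. The lists were not drawn up independently of these data. Besides, abu-1, pqn-54 and pqn-13, counted above 0, passed the filter only through their zidovudine values. Leaving out DMSO 4 gave 23 above 0 and a median of 0.17. Without DMSO 4 and zidovudine 2 these were 24 and 0.21, and with the length trend removed 24 and 0.20.

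Among the 10 tested genes of pharyngeal muscle contraction and excitation, 8 lay above 0 and 2 below, and the median was 0.14. The troponin T gene tnt-4 read 2.52, 3.07, 2.62 and 3.56 log2 CPM with DMSO and 3.43, 3.18, 3.61 and 3.57 with zidovudine. DMSO 4 lay among the zidovudine libraries, so the groups overlapped, and the difference of 0.51 (SE 0.21) did not pass (limma adjusted p = 0.376). The calcium channel gene cca-1, which helps to start the pharyngeal action potential, measured 3.49, 3.60, 3.51 and 3.44 with DMSO and 3.81, 3.78, 3.77 and 4.05 with zidovudine. No value was shared between the groups, and yet the difference of 0.34 (SE 0.10) missed the adjusted threshold (limma adjusted p = 0.223).

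The remaining differences on that list were 0.44 for the muscarinic receptor gene gar-3, 0.27 for eat-20, 0.16 for the gap junction gene inx-3, 0.12 for the glutamate-gated chloride channel gene avr-15, 0.09 for the sodium pump gene eat-6, 0.01 for the potassium channel gene exp-2, -0.10 for glc-2 and -0.24 for eat-17. Without DMSO 4, eat-17 was at -0.06, gar-3 at 0.31 and tnt-4 at 0.71. The sign turned for exp-2 without DMSO 3 or zidovudine 3, and for glc-2 without DMSO 3. eat-20 and inx-3 also had no overlap between the groups. The 2 genes of the list below 0 thus included another glutamate-gated chloride channel gene, glc-2.

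Of the 7 tested genes listed as pharynx transcription factors, 6 lay above 0 and 1 below, and the median was 0.12. tbx-2, which encodes a T-box factor needed for anterior pharyngeal muscle, measured 2.999, 2.96, 2.84 and 2.78 log2 CPM with DMSO and 3.31, 3.30, 3.33 and 3.23 with zidovudine. All zidovudine libraries were above all DMSO libraries, and the difference was 0.40 (SE 0.11, limma adjusted p = 0.181). The others were peb-1 at 0.32, ceh-27 at 0.23, pha-1 at 0.12, tbx-38 at 0.11, eya-1 at 0.05 and ceh-34 at -0.04. Without DMSO 4, peb-1 was at 0.18 and tbx-38 at -0.12. tbx-38 also turned without zidovudine 2, eya-1 without DMSO 2, and ceh-34 without DMSO 3 or zidovudine 3. The median of the list was 0.09 to 0.21 with 1 library left out, the highest value being that without zidovudine 4, and 5 to 7 genes lay above 0.

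The pharyngeal cuticle list had the highest median, 0.59, with 8 of 8 tested genes above 0. Of these, abu-1, pqn-54 and pqn-13 averaged -0.31, -0.19 and -0.09 log2 CPM with DMSO. They passed the filter only through their zidovudine values and so could enter the list only as rises. The count and the median are in part set by the filter. Without DMSO 4 the count was 7 of 8 and the median 0.70, and without DMSO 3 the median was 0.35. Its genes of the abu and pqn families encode proteins rich in glutamine and asparagine that line the lumen. abu-14 read 1.20, 1.45, 1.37 and 1.78 log2 CPM with DMSO and 2.34, 1.98, 1.86 and 2.02 with zidovudine, without overlap, a difference of 0.60 (SE 0.18, limma adjusted p = 0.216). The differences of the others were 0.77 for abu-1, 0.68 for abu-11, 0.60 for pqn-54, 0.58 for pqn-74, 0.25 for abu-8, 0.24 for pqn-13 and 0.17 for the chitin synthase gene chs-2. pqn-13, very low in DMSO 4, was at -0.21 without that library. Reads were few for some of these genes, with as few as 9 in a library for abu-1, whereas chs-2 had at least 312.

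Pharyngeal gland genes were evenly divided, 2 above and 2 below 0, at 0.36 for phat-3, 0.15 for phat-6, -0.08 for B0507.1 and -0.28 for kel-1. Their median was 0.04, and with 1 library left out it ran from -0.10 (without DMSO 1) to 0.13 (without zidovudine 4). kel-1 was the gene of these lists whose zidovudine libraries were all lower. The only tested gene of the pharyngeal neuron list, the serotonin receptor gene ser-7, had a difference of 0.18.

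**Figure D5:**
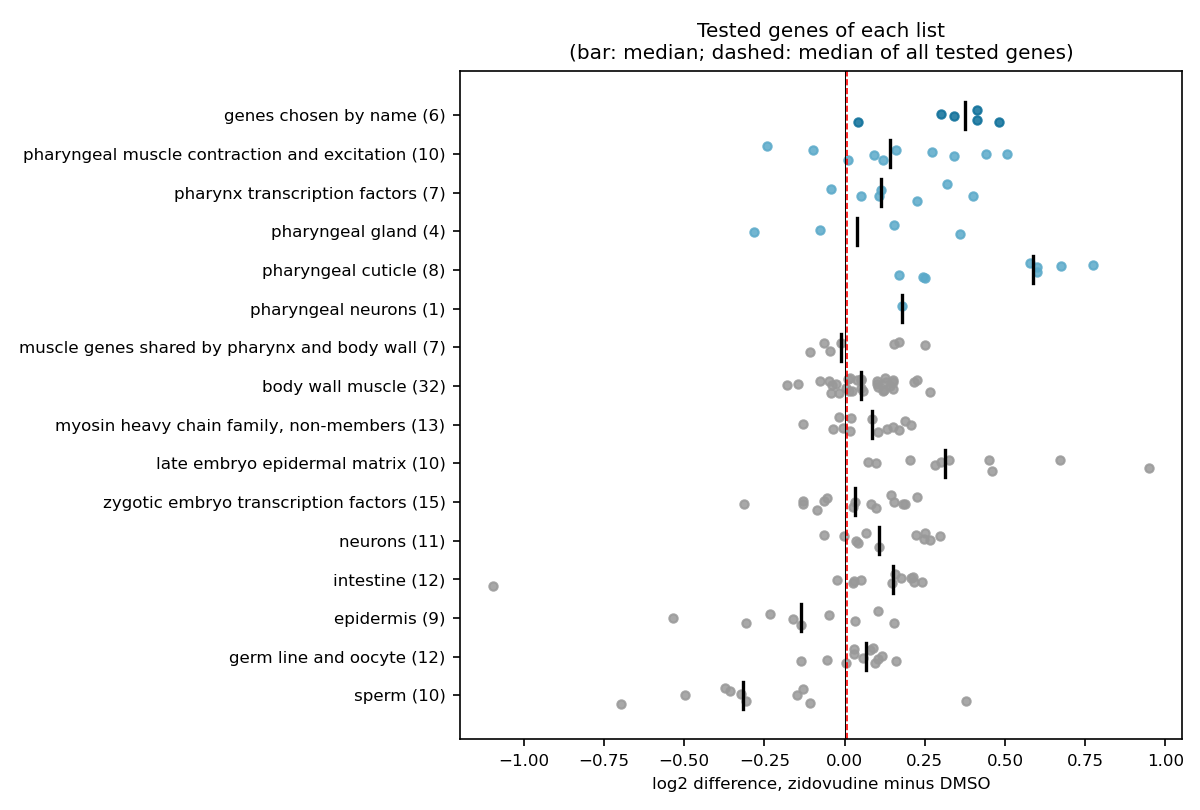
Difference between groups (log2, zidovudine minus DMSO) of each tested gene, by list; black bars are list medians, the dashed line is the median of all tested genes, and the number of tested genes is in brackets. The genes chosen by name lie at 0.04 to 0.48 and pharyngeal cuticle genes have the highest list median, 0.59. Of the cuticle genes, abu-1, pqn-54 and pqn-13 passed the filter only through their zidovudine values.

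Muscle outside the pharynx, and the wider myosin family, were compared through listed genes. Of 32 tested body wall muscle genes, 24 lay above 0 and 8 below. The median was 0.05 (0.09 without DMSO 4, 0.02 with the length trend removed). At an unadjusted limma p under 0.05, 3 were higher, where 6.28% of all tested genes were. The smallest p (differences in brackets) belonged to tnt-3 (0.27), unc-22 (0.22) and atn-1 (0.15). The 7 genes that pharynx and body wall share, such as those for myosin light chains and paramyosin, had 3 above and 4 below 0 (5 above without DMSO 4) and a median of -0.01, with the smallest p for egl-19 (0.25), unc-68 (0.15) and unc-15 (0.17). The 13 other tested genes of the myosin heavy chain family were not all of muscle, and spe-15 among them was also on the sperm list. unc-54 and myo-3 were also counted in the body wall list. Of the 13, with a median exon length of 6104 nt, 9 lay above 0 and 4 below. Their median was 0.09, against 0.04 without DMSO 4 and 0.01 with the length trend removed. Their smallest p belonged to hum-4 (0.21), hum-7 (0.19) and unc-54 (0.15). No gene on these lists passed the adjusted threshold in limma or voom.

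Markers of other cells and stages were set beside the pharynx genes. All 10 genes listed under the epidermal matrix of late embryos were above 0, with a median of 0.31. The smallest p (differences in brackets) belonged to fbn-1 (0.45), sym-1 (0.46) and hch-1 (0.67). Their summed level was 185 to 196 CPM with DMSO and 219 to 247 CPM with zidovudine. At an unadjusted limma p under 0.05, 6 were higher, where 6.28% of all tested genes were. In 5 every zidovudine library was above every DMSO library, against 3.84% of all, and none passed the adjusted threshold. Of 15 tested genes listed as embryo transcription factors, 9 lay above 0 and 6 below, and the median was 0.03 (-0.01 with the length trend removed). The smallest p belonged to pal-1 (0.15), ceh-43 (0.19) and hlh-1 (0.23). lin-26 and hlh-1 were also on the epidermis and body wall muscle lists, so this list does not measure embryos alone. Embryos carry a pharynx of their own, and the part of embryos held by the adults in the values of the pharynx genes was not tested.

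Neuron genes had 9 of 11 above 0 and a median of 0.11 (0.06 without zidovudine 2), with the smallest p for egl-21 (0.30), unc-13 (0.27) and unc-104 (0.25). At an unadjusted limma p under 0.05, 4 neuron genes were higher, where 6.28% of all tested genes were. In 3 of them every zidovudine library was above every DMSO library, against 3.84% of all, so such calls were not particular to the pharynx lists. Intestine genes had 10 of 12 above 0 and a median of 0.15 (0.09 without DMSO 4 or without zidovudine 4), with the smallest p for ifc-2 (0.21), ifb-2 (0.22) and pept-1 (0.21). At the same unadjusted p, 3 intestine genes were higher, and 1 had every zidovudine library above every DMSO library. Germ line and oocyte genes had 10 of 12 above 0 and a median of 0.07 (0.03 without DMSO 4, 0.02 without zidovudine 4), with the smallest p for oma-1 (0.16), glh-1 (-0.14) and oma-2 (0.12). Epidermis genes had 6 of 9 below 0 and a median of -0.14, with the smallest p for rol-6 (-0.54), col-19 (-0.14) and bli-1 (-0.31); without DMSO 4 the median was 0.05. Sperm genes had 9 of 10 below 0 and a median of -0.32 (-0.20 with the length trend removed), with the smallest p for msd-2 (-0.70), msp-36 (-0.50) and spe-41 (0.38). At the same unadjusted p, 0 germ line and oocyte genes were higher or lower. There 1 epidermis gene was lower, and 1 sperm gene was higher and 3 lower, where 5.48% of all tested genes were lower. No gene of these lists passed the adjusted threshold in limma or voom, and no marker of any list was at 0 in all libraries.

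The genes most like the 7 in their levels over the 8 libraries were sought among 10880 genes that averaged 1 log2 CPM or more. Against the mean of the 7 genes, each centred on its own mean, the highest Pearson r was 0.98 for K10B3.5, then 0.97 for the E2F-related gene efl-3, and 0.96 for both M163.1 and the nuclear receptor gene nhr-45. The next 6, at 0.95, were dnj-27, the hatching protease gene hch-1, igcm-1, atf-6, R07C12.2 and EEED8.15. This ranking rested on ceh-22, whose few reads give it the widest spread: without it, the 10 nearest genes to the mean of the other 6 shared 0 genes with these and were led by papl-1 at 0.98 and inx-3 at 0.97.

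Taken gene by gene, Y39B6A.1 was nearest to both myo-1 (r = 0.97) and myo-2 (0.96). The nearest to myo-5 was H14A12.3 (0.98), to tnc-2 F35B12.10 (0.94), to tni-4 the cuticle collagen gene lon-3 (0.97), to pha-4 the MAP kinase kinase gene sek-1 (0.96) and to ceh-22 mif-3 (0.95). myo-1 and myo-2 thus had the same nearest gene, and no other pair of the 7 did. With so many genes searched over 8 libraries, these values describe a ranking only.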

How the data were processed

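Poly(A) RNA of whole worms was sequenced from 4 DMSO and 4 zidovudine samples, using a directional library kit per the labels' protocols. The authors deposited 1 table of 17826 genes with a column per sample. Its values are deposited log2 CPM, although the file headers say CPM. Per the submitters' processing notes, HISAT2 2.1.0, Trimmomatic 0.32 and FastQC, and HTSeq 0.11.0 with limma 3.40.6 and edgeR 3.26.8, were used, with roles, build and strand setting not given in the sources used here. Steps in the values gave whole reads for 100% of entries within 0.05 reads, and showed that about 2 reads had been added before the log, which pulls differences of low genes toward 0. Reads were 30449021 to 56930820 per library, and libraries of a group differed by 15.1 to 72.2 in chi-square per degree of freedom, so none repeats another.

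Differences are zidovudine minus DMSO from a limma-trend fit (R 4.3.3, limma 3.58.1, two-sided and robust, group only) on genes averaging 0 log2 CPM or more, adjusted by Benjamini and Hochberg over 12382 genes, threshold 0.05. ceh-22, below the filter, takes its difference from a fit with no filter. Positions and exon lengths (union of exons) came by gene ID from Ensembl 115, WBcel235, which held 17798 of the IDs.

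The 7 genes and all lists were chosen with earlier results of these data known. Named genes were the 7, every tested gene of the pharynx lists, the 3 genes of smallest p in the other lists, and the nearest genes by Pearson r over the 8 libraries (10 to the mean, 1 to each gene). Alternatives were quantile normalization, library totals, a prior of 0.5 reads, limma without trend, a low-value filter at 1 log2 CPM or none, a replicate block, quality weights, voom, length-trend removal, other thresholds and leaving out each library. Added after the data were seen were leaving out DMSO 4 with zidovudine 2, likeness without ceh-22, leaving out each library for the lists, and levels compared within libraries. Promoter and protein sequences were not analysed here.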

Additional observations from a re-analysis of the deposited data

Results flagged for a closer look

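Among 74 groups of 4 libraries (the tested genes of the pharynx lists and the 7 genes, each group apart), 8 held a library far from the others, with a gap to the nearest that exceeded Dixon's critical share of the group's range. Chance gives about 1 in 20 groups, and none of the 8 was a group of the 7 genes. With DMSO, exp-2 was low in DMSO 3 (0.901 of the range) and pqn-13 was low in DMSO 4 (0.946). With zidovudine, zidovudine 4 was high for cca-1 (0.859), eat-20 (0.872) and abu-8 (0.926), which puts 3 of the 8 in that library. Zidovudine 2 was high for gar-3 (0.86) and low for pqn-13 (0.839), and zidovudine 1 was low for abu-11 (0.958).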

How the results depend on the processing

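The differences of the 7 genes stayed within 1 SD, taken within the groups, of their reported values in all settings run. For many settings this was fixed in advance. Leaving out 1 of 4 libraries cannot move a difference that far. The filters, the replicate block and the fit without trend leave it unchanged. myo-1 ranged from 0.38 to 0.60, myo-2 from 0.31 to 0.48, myo-5 from 0.31 to 0.52, tnc-2 from 0.21 to 0.39 and pha-4 from 0.26 to 0.42. tni-4 ranged from -0.03 to 0.13 and ceh-22 from -0.55 to 0.22, so their sign depended on the setting. The median of the 7 was 0.26 to 0.39 when libraries were left out in turn. None of the tested pharynx genes passed the adjusted threshold as reported, against 3 with sample quality weights, 3 without DMSO 4 and zidovudine 2 (chosen after seeing the data), 1 at an adjusted p under 0.1, and 0 to 2 with 1 library left out. Over all genes, 7 were higher and 14 lower, and the cause of the following changes was not tested. Quality weights gave 74 and 74, leaving out both libraries 49 and 107, no mean-variance trend 2 and 2, an adjusted p under 0.01 1 and 4, and under 0.1 28 and 26. Quantile normalization gave 7 lower, library totals 7 lower and a filter at 1 log2 CPM 8 lower. Leaving out 1 library gave 1 to 17 higher and 3 to 28 lower. Same-numbered libraries correlated at -0.32 to 0.14 in their deviations from the group means. Whether a shared number means a shared culture or batch is not stated in the labels and cannot be told from these values. A replicate block gave 1 higher and 8 lower. Depth limited ceh-22 most, with 3 to 16 reads. The planned search of promoters and proteins was not run.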
